A study of Mus musculus with 16 samples.

Results

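The urea cycle and amino acid breakdown genes studied here are 44 named genes, taken by symbol from a table of 53465 genes measured in mouse liver by RNA sequencing. All 44 were in the table, and all 44 had enough counts to be among the 14998 genes tested. The livers came from 16 C57BL/6 mice in 4 groups of 4 mice: CD_vehicle, CD_PFOA, HFD_vehicle and HFD_PFOA. CD is a control diet and HFD a high-fat diet used to make the liver fatty, fed for 16 weeks before treatment. PFOA is perfluorooctanoic acid, a long-lived industrial surfactant, given for a further 8 weeks against vehicle alone, and all mice were 29 to 30 weeks old. The sources used here give no sex, dose or route, and each library is the whole liver RNA of 1 mouse.

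The liver removes the nitrogen of amino acids by passing it through glutamate, aspartate and ammonia into the urea cycle, whose first steps are in the mitochondria and whose last are in the cytosol. The carbon skeletons follow separate routes: tyrosine to fumarate and acetoacetate, tryptophan through kynurenine, histidine to glutamate, proline to glutamate, and methionine through S-adenosylmethionine and homocysteine to cysteine. Most of these enzymes are made mainly in hepatocytes and are known to follow fasting hormones and protein intake.

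Libraries held 14456524 to 25778125 counts, and the 44 genes together took 1.88 to 2.54% of the counts in CD_vehicle, 1.38 to 1.58% in CD_PFOA, 1.73 to 1.896% in HFD_vehicle and 1.28 to 1.42% in HFD_PFOA. Levels are CPM, counts scaled to 1e+06 per library with TMM factors, and mice are listed in the order 1 to 4, which only names them. As a check of the tissue, 7 hepatocyte markers that are not members (Alb, Ttr, Apoa1, Apoa2, Apob, Serpina1a and Fga) had a summed level of 112690 to 141180 CPM in CD_vehicle, 64984 to 82618 in CD_PFOA, 85291 to 98180 in HFD_vehicle and 57896 to 70737 in HFD_PFOA. Of these 7 markers, edgeR called 5 lower and 0 higher with PFOA in CD, and likewise 5 and 0 with PFOA in HFD and with HFD under vehicle, so the marker level moves with the results that follow, and its part in them was not tested. In whole tissue, fewer cells of a type and less RNA per cell cannot be told apart. The library of mouse CD_vehicle 4 stood apart: 33 of the 44 genes were below their values in the other 3 CD_vehicle mice, with a median deviation of -0.39 on the log2 scale, and its summed B cell markers reached 646 CPM against 18.4 to 68.6 elsewhere. Other libraries also leaned one way within their group: CD_PFOA 3 was above its 3 group mates in 33 of the 44 genes and HFD_PFOA 1 in 27. CD_PFOA 1 was below them in 25 and HFD_PFOA 4 in 28. Over all genes CD_vehicle 1 was the most distant of its group (chi-square over its degrees of freedom 136 to 153.7 against the other 3, which differed among themselves by 16.7 to 59.6). In it 10 of the 44 genes were lowest and 8 highest. The 4 kidney tubule markers, a tissue that also makes several of these enzymes, summed to at most 0.43 CPM in any library, with Kap at 0 in all 16. The summed adipocyte list was 7.46 to 37.5 CPM in CD_vehicle, 55.6 to 104.9 in CD_PFOA, 36.9 to 100.3 in HFD_vehicle and 108 to 238.5 in HFD_PFOA, and was higher with PFOA on both diets without overlap. Nearly all of it was Cidea, the 1 gene of the 4 that was tested, and the other adipocyte markers Adipoq, Plin1 and Retn reached at most 0.458, 0.375 and 0.124 CPM in any library.

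In livers on the control diet, PFOA lowered 28 of the 44 genes and raised 1, Tdo2 (edgeR quasi-likelihood test, adjusted p under 0.05 over all 14998 genes), with a median log2 fold change of -0.60. Over all genes tested, 24.4% were called, 12.6% lower and 11.8% higher, with a median of -0.0024. Scaled by library totals, the lower calls were 38.9% of all calls in place of 51.8%. With PFOA on the high-fat diet, 19 of the 44 fell and 3 rose (median -0.29), against 16.5% of all genes called, 7.91% lower and 8.60% higher (median 0.0075). The high-fat diet under vehicle lowered 21 and raised 0 (median -0.39), against 10.4% of all genes called, 5.21% lower and 5.19% higher (median -0.0286). That last split depends on the scaling: by library totals 12.3% of all calls were lower in place of 50.1%, the median of all genes moved to 0.19, and 12 of the 44 were called lower and 1 (Gpt2) higher, with a median of -0.16 for the 44. Among the mice given PFOA, the high-fat diet changed none of the 44 past the threshold (0.0600% of all genes called, 0.0467% higher and 0.0133% lower; by library totals 8.33% of all calls were lower in place of 22.2%). Of the 44, 13 had an unadjusted p under 0.05, a count given without its share over all genes. DESeq2 called 4 of the 44 (1 higher and 3 lower), beside 179 of all 14998 genes (99 higher and 80 lower). Many of the 44 are abundant transcripts, and abundant genes fell more often: of 1247 genes with a mean of at least 100 CPM, 35.3% fell and 20.7% rose with PFOA in CD, beside 23 and 1 of the 31 members among them. For PFOA in HFD these were 24.8% and 20.0% beside 16 and 1 of the 31, and for HFD under vehicle 23.0% and 4.65% beside 18 and 0. The 2 groups of 4 mice did not overlap for 23 of the 44 with PFOA in CD (22.7% of all genes), 26 with PFOA in HFD (25.3%) and 15 with HFD under vehicle (14.5%). PFOA in CD and HFD under vehicle are both set against the same 4 CD_vehicle mice. A high level in those mice lowers both changes, so falls in both are not 2 independent results. Without mouse CD_vehicle 4, 32 fell and 1 rose with PFOA in CD, 21 fell and 4 rose with PFOA in HFD, and 31 fell with HFD under vehicle. Without CD_vehicle 1 these were 29 and 1, 19 and 4, and 23. Calls over all genes moved too. In the same 3 comparisons they numbered 3656, 2476 and 1561 as reported. Without CD_vehicle 4 they were 3977, 2732 and 2288 (2012, 1328 and 1057 lower). Without CD_vehicle 1 they were 3399, 2809 and 1554 (1693, 1389 and 811 lower). The map of the 44 changes shows the 4 comparisons side by side.

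**Figure D1:**
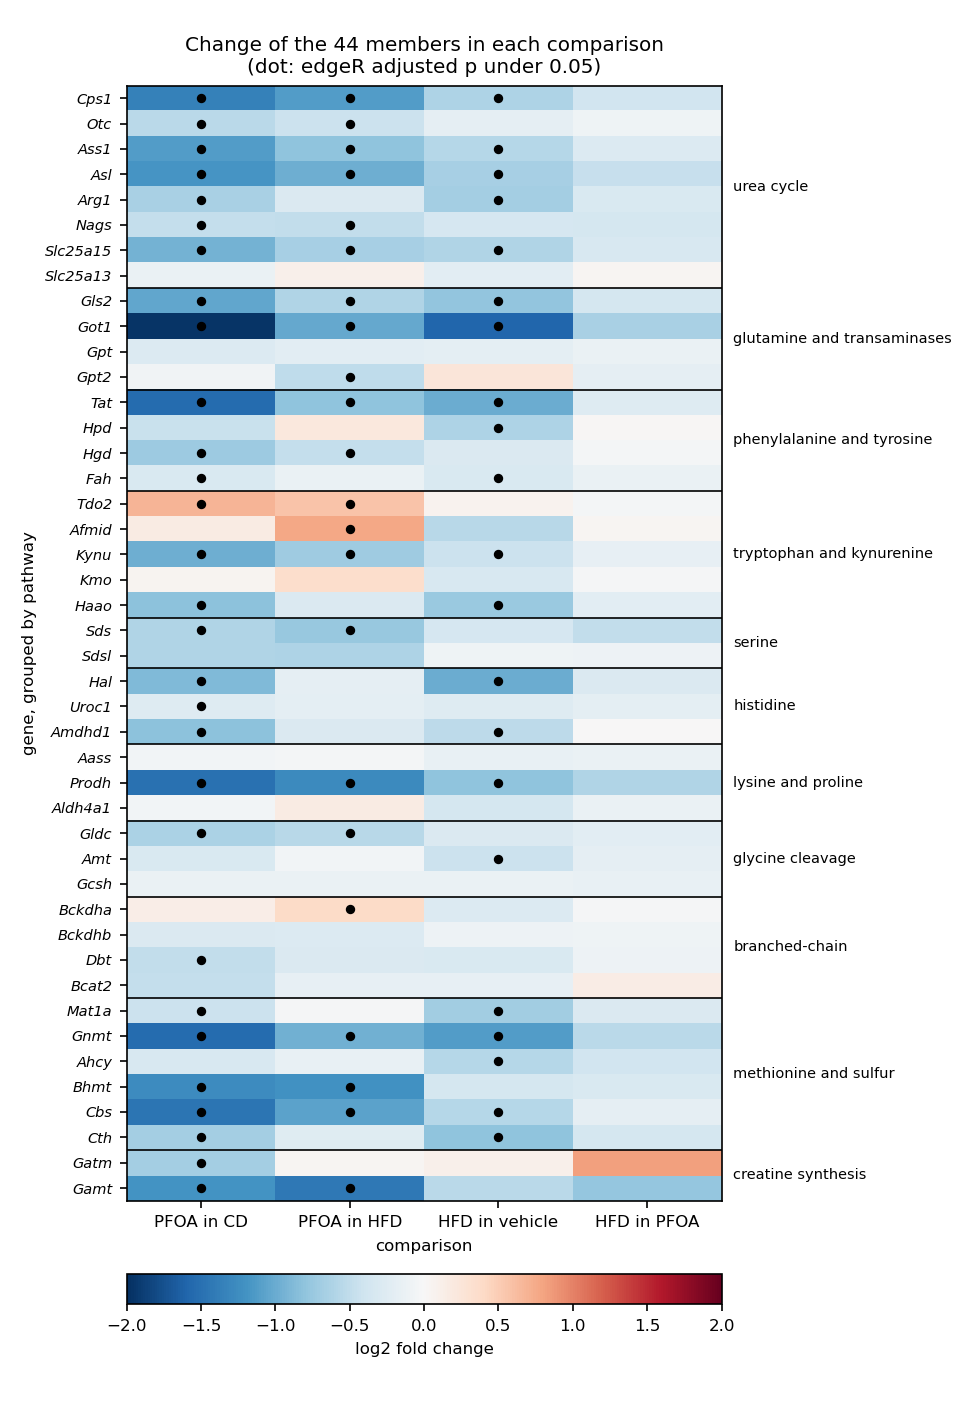
Log2 fold change (colour, -2 to 2) of each of the 44 genes (rows, grouped by pathway) in 4 comparisons (columns), with a dot where edgeR adjusted p was under 0.05. PFOA in CD carries 29 dots, PFOA in HFD 22, HFD in vehicle 21 and HFD in PFOA 0.

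The 250 bases before the transcription start of the 5 genes with the largest falls with PFOA in CD that have an entry in the RefSeq promoter table (GRCm38.p6), and of Tdo2, the gene that rose on both diets, are printed so that the upstream sequence of genes that moved together can be compared. The start is that of RefSeq, which is not always the outermost start of the GENCODE gene positions given with each gene. It lies 1013 bases inside the GENCODE gene for Prodh, 474 for Tdo2, 33 for Cbs and 3 for Gnmt. The windows of Prodh and Tdo2 are within those genes. Capitals mark CCAAT boxes on either strand (CCAAT or its complement ATTGG) and the TATA box letters TATAAA.
Got1, chr19:43524606-43524855, minus strand: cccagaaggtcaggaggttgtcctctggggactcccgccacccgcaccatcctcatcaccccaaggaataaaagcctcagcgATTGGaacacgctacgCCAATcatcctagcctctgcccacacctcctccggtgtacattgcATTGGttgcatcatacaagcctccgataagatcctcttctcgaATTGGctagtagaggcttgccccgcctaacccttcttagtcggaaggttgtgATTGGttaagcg
Tat, chr8:109990186-109990435, plus strand: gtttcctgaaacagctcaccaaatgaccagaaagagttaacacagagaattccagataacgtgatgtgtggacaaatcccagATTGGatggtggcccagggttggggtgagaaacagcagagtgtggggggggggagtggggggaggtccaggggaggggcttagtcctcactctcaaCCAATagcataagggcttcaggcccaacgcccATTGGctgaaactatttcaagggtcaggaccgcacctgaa
Gnmt, chr17:46729166-46729415, minus strand: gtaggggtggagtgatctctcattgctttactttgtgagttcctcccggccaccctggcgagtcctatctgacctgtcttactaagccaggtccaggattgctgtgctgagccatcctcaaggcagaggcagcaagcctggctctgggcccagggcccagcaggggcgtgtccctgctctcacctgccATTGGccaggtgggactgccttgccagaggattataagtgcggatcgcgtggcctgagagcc
Prodh, chr16:18089191-18089440, minus strand: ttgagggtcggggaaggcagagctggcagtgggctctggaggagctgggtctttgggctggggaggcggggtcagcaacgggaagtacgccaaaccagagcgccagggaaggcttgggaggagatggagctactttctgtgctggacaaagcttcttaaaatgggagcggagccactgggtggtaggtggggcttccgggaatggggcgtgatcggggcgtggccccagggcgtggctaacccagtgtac
Cbs, chr17:31637206-31637455, minus strand: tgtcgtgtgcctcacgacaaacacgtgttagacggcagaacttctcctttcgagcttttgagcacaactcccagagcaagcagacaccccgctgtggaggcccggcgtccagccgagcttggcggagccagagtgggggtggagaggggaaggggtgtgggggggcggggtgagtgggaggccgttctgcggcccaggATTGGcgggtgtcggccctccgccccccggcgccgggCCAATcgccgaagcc
Tdo2, chr3:81975729-81975978, minus strand: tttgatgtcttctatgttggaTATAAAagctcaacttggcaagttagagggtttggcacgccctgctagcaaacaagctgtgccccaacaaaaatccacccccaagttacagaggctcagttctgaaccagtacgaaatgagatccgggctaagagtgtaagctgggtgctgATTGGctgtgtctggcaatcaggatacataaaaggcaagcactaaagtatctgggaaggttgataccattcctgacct
Got1 holds 5 CCAAT boxes in this window, Tat 3, Cbs 2, Gnmt 1, Tdo2 1 and Prodh 0. Of the 33 members with an entry, 18 (54.5%) hold CCAAT on either strand, as do 33.8% of all 32851 promoters in the table, and the 18 include genes that fell (Got1, Tat, Cbs), a gene that rose (Tdo2) and genes not called in any comparison (Aass, Gcsh). TATAAA is found in 3 of the 33 (9.09%) and in 12.4% of all. Not printed or counted here were Cps1, Asl, Arg1, Gls2, Gpt, Kynu, Sds, Sdsl, Dbt, Mat1a and Cth. Longer motifs of factors known in liver were searched on both strands in the same way: TTGCNNCAA (C/EBP) was in 3.03% of the 33 and 1.74% of all, CAAAGNCCA (HNF4A) in 6.06% and 1.70%, of which the stricter CAAAGTCCA was in 0 of the 33 and 0.384%. The cyclic AMP half-site TGACGT was in 3.03% and 6.47%, the full TGACGTCA that contains it in 0 and 1.55%, TGATGNAAT (C/EBP-ATF) in 0 and 0.816%, the direct repeat 1 element of nuclear receptors in 0 and 0.338%, and the glucocorticoid receptor palindrome in 0 and 0.387%. A match describes the letters in the window and nothing more.

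Of the 8 urea cycle genes, 7 fell with PFOA in CD, 6 with PFOA in HFD and 5 with HFD under vehicle, and their summed level was 5564 to 9522 CPM in CD_vehicle, 3047 to 4415 in CD_PFOA, 4654 to 5692 in HFD_vehicle and 2778 to 3258 in HFD_PFOA. Cps1 (ENSMUSG00000025991.8, chr1:67123026-67231259, GRCm38), the mitochondrial entry enzyme that fixes ammonia as carbamoyl phosphate, stood at 2995, 4840.5, 4702 and 2383 CPM in CD_vehicle, 1149, 1497, 1771 and 1406 in CD_PFOA, 2096, 2306, 2799 and 2502 in HFD_vehicle and 1198, 1095, 1244 and 943 in HFD_PFOA. Every PFOA mouse was below every vehicle mouse of its diet, whereas the vehicle groups of the 2 diets overlapped. Its log2 fold change was -1.36 ± 0.19 (SE) with PFOA in CD (edgeR adjusted p = 1.95e-05), -1.11 ± 0.19 in HFD (2.30e-04) and -0.62 ± 0.18 for HFD under vehicle (0.0375).

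The cytosolic pair that makes and splits argininosuccinate followed the same order of groups. Ass1 (ENSMUSG00000076441.9, chr2:31470207-31520672), the synthetase, read 762, 1418, 1340.5 and 868 CPM in CD_vehicle, 388, 574, 639 and 422 in CD_PFOA, 701, 668, 711 and 865 in HFD_vehicle and 417, 394, 452 and 414 in HFD_PFOA, a change with PFOA of -1.12 ± 0.18 in CD and -0.81 ± 0.18 in HFD (edgeR adjusted p = 1.15e-04 and 0.00308). The lyase Asl (ENSMUSG00000025533.15, chr5:130011258-130029247) read 259.6, 327, 348 and 234.7 CPM in CD_vehicle, 101, 151, 162 and 103 in CD_PFOA, 164, 189, 212 and 177 in HFD_vehicle and 104, 102, 85.6 and 85.1 in HFD_PFOA, with -1.17 ± 0.16 in CD and -0.98 ± 0.15 in HFD (edgeR adjusted p = 1.20e-05 and 1.37e-04). For both genes no PFOA mouse reached the lowest vehicle mouse of its diet. Slc25a15, the carrier that exchanges ornithine and citrulline across the mitochondrial membrane, fell by 0.95 ± 0.14 in CD and by 0.67 ± 0.14 in HFD. Smaller falls were seen for Otc, which makes citrulline (-0.54 ± 0.13 and -0.43 ± 0.13), and for Nags, which makes the activator of Cps1 (-0.47 ± 0.12 and -0.50 ± 0.12). Nags shares exon bases with an antisense gene, and the reads carry no strand, so its level is uncertain. Otc lost its call in HFD without HFD_vehicle 3 or 4 or HFD_PFOA 2, 3 or 4, where its change was -0.43 to -0.40 (edgeR adjusted p 0.0651 to 0.0870).

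Arg1 (ENSMUSG00000019987.9, chr10:24915221-24927484), the arginase that releases urea, was at 1221, 1605, 1541 and 1233 CPM in CD_vehicle, 691, 954, 974 and 935 in CD_PFOA, 810.4, 768, 986 and 947 in HFD_vehicle and 754, 762, 673 and 692 in HFD_PFOA. All 12 mice of the other 3 groups were below the 4 CD_vehicle mice. It fell with PFOA in CD (-0.66 ± 0.12) and with HFD under vehicle (-0.67 ± 0.12), both against the same CD_vehicle mice. PFOA in HFD gave -0.28 ± 0.12 (edgeR adjusted p = 0.126). Slc25a13, the aspartate-glutamate carrier that feeds aspartate to Ass1, was not called in any comparison: its values ran from 181 to 228.3 CPM in CD_vehicle, 165 to 209 in CD_PFOA, 177 to 185 in HFD_vehicle and 174 to 215 in HFD_PFOA, and its change with PFOA was -0.14 ± 0.09 in CD and 0.10 ± 0.09 in HFD. The plot of single mice shows these levels for 9 of the 44 genes.

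**Figure D2:**
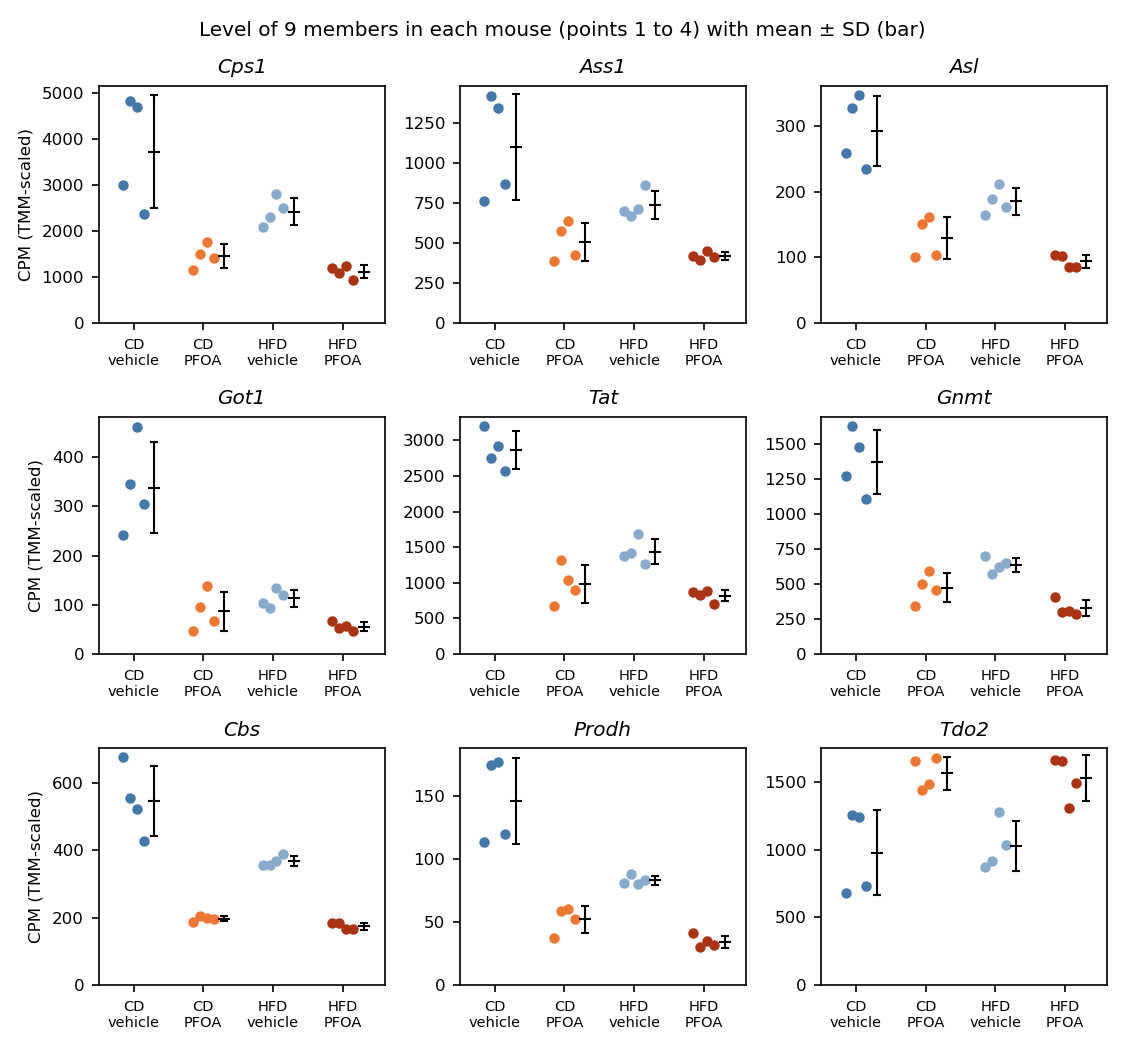
Level (CPM after TMM scaling, linear axis from 0) of 9 genes in each of the 16 mice (points) with the mean ± SD of each group of 4 (bar). In all panels but Tdo2 the 4 CD_vehicle mice lie above the 4 CD_PFOA mice, and for Tdo2 the PFOA mice lie above the vehicle mice of their diet.

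Of the 4 genes of glutamine breakdown and transamination, 2 fell with PFOA in CD, 3 with PFOA in HFD and 2 with HFD under vehicle. Got1 (ENSMUSG00000025190.13, chr19:43499752-43524605), the cytosolic aspartate aminotransferase, had the largest fall of the 44 with PFOA in CD: 241.3, 346, 461 and 305 CPM in CD_vehicle against 47.7, 95.9, 139 and 67.0 in CD_PFOA, with 104, 92.9, 134 and 120.2 in HFD_vehicle and 67.8, 52.7, 56.6 and 46.1 in HFD_PFOA. The CD_vehicle mice were above all others, and the HFD_vehicle mice overlapped the CD_PFOA mice. Its log2 fold change was -1.95 ± 0.25 with PFOA in CD (3.87-fold lower, edgeR adjusted p = 8.27e-06), -1.02 ± 0.25 in HFD (0.0063) and -1.58 ± 0.25 for HFD under vehicle (5.42e-04).

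Gls2, the liver glutaminase that frees ammonia beside Cps1, read 245.5, 431, 362 and 202 CPM in CD_vehicle, 129.8, 176, 183 and 117 in CD_PFOA, 166, 160.2, 195 and 198 in HFD_vehicle and 137, 118, 119 and 100.04 in HFD_PFOA. It fell with PFOA in CD (-1.03 ± 0.19), PFOA in HFD (-0.60 ± 0.19) and HFD under vehicle (-0.79 ± 0.19). The call in HFD ended without HFD_vehicle 1, 3 or 4 or HFD_PFOA 2, 3 or 4 (-0.64 to -0.53, edgeR adjusted p 0.0504 to 0.110), and that of HFD under vehicle ended without CD_vehicle 2 (-0.58, edgeR adjusted p = 0.0546). Its exons overlap those of the antisense gene Spryd4. Of the alanine aminotransferases, cytosolic Gpt was not called (-0.27 ± 0.11 with PFOA in CD, -0.21 ± 0.11 in HFD). Mitochondrial Gpt2 went from 463 to 536 CPM in HFD_vehicle to 312 to 392 in HFD_PFOA, without overlap (-0.50 ± 0.11, edgeR adjusted p = 0.00336), whereas in CD it gave -0.08 ± 0.11.

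Tyrosine breakdown was covered by 4 genes, of which 3 fell with PFOA in CD, 2 with PFOA in HFD and 3 with HFD under vehicle. Tat (ENSMUSG00000001670.13, chr8:109990437-109999803), the tyrosine aminotransferase that starts tyrosine breakdown, read 3202, 2749.7, 2927 and 2568 CPM in CD_vehicle, 676, 1319.5, 1035 and 902 in CD_PFOA, 1382, 1416, 1689.5 and 1265 in HFD_vehicle and 867, 824, 883 and 708 in HFD_PFOA. No mouse outside CD_vehicle reached the lowest CD_vehicle mouse, and no HFD_PFOA mouse reached the HFD_vehicle mice. Its change was -1.54 ± 0.15 with PFOA in CD (edgeR adjusted p = 3.58e-07), -0.81 ± 0.15 in HFD (7.03e-04) and -0.99 ± 0.15 for HFD under vehicle (4.99e-04).

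The enzymes after Tat changed less. Hgd, homogentisate dioxygenase, went from 483 to 721 CPM in CD_vehicle to 336 to 401 in CD_PFOA and from 469 to 528 in HFD_vehicle to 324 to 435 in HFD_PFOA, falls of 0.73 ± 0.12 and 0.48 ± 0.12 on the log2 scale. Fah, the last enzyme, which yields fumarate and acetoacetate, fell by 0.30 ± 0.09 with PFOA in CD and by 0.31 ± 0.09 with HFD under vehicle. The first of these calls ended without CD_vehicle 2 or 3 or CD_PFOA 1 or 4 (-0.27 to -0.26, edgeR adjusted p 0.0656 to 0.0695). The second ended without any 1 of 10 mice, all but CD_vehicle 1 and 4, CD_PFOA 1 and 3, HFD_vehicle 1 and HFD_PFOA 1 (-0.31 to -0.26, edgeR adjusted p 0.0515 to 0.126). Hpd, which makes homogentisate, read 1532, 1870.5, 1795 and 866 CPM in CD_vehicle, 1094, 1156, 1203 and 1021 in CD_PFOA, 1012, 927, 1044 and 951 in HFD_vehicle and 1392, 1056, 1093 and 1022 in HFD_PFOA. Mouse CD_vehicle 4 lay below all 4 CD_PFOA mice, and the change with PFOA in CD was -0.44 ± 0.17 (edgeR adjusted p = 0.0624), or -0.63 without that mouse (edgeR adjusted p = 1.895e-04). HFD under vehicle lowered it (-0.62 ± 0.17), a call that ended without CD_vehicle 2 or 3 or HFD_vehicle 2 or 4 (-0.61 to -0.50, edgeR adjusted p 0.0641 to 0.0795).

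The 5 tryptophan and kynurenine genes did not move one way: with PFOA in CD 1 rose and 2 fell, with PFOA in HFD 2 rose and 1 fell, and with HFD under vehicle 2 fell. Tdo2 (ENSMUSG00000028011.16, chr3:81957090-81976202), the dioxygenase that commits tryptophan to the kynurenine route, read 683, 1260.2, 1243 and 731 CPM in CD_vehicle, 1658, 1442, 1486 and 1684 in CD_PFOA, 877, 915, 1283 and 1038 in HFD_vehicle and 1669, 1659, 1309 and 1498 in HFD_PFOA. On both diets the PFOA mice lay above the vehicle mice, and it was the only 1 of the 44 called higher on both (0.68 ± 0.17 in CD, edgeR adjusted p = 0.00698; 0.58 ± 0.17 in HFD, 0.0265). Mice CD_vehicle 1 and 4 were the lowest of all 16, and without both the rise in CD was 0.32 and was not called (edgeR adjusted p = 0.0906). In HFD the call ended without HFD_vehicle 1, 2 or 4 or HFD_PFOA 1 or 2 (0.51 to 0.58, edgeR adjusted p 0.0567 to 0.0889).

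Kynu, the kynureninase that cuts the kynurenine side chain, fell on both diets: 215, 286, 276 and 220.6 CPM in CD_vehicle against 124, 115, 139.6 and 128 in CD_PFOA, and 197, 184, 189 and 175 in HFD_vehicle against 120.0, 98.0, 118 and 117 in HFD_PFOA, with no overlap on either diet. The changes were -0.98 ± 0.10 (edgeR adjusted p = 8.20e-07) and -0.72 ± 0.10 (4.62e-05). Under vehicle HFD gave -0.42 ± 0.10, which lost its call without CD_vehicle 3 (-0.37, edgeR adjusted p = 0.0520). Haao, 3-hydroxyanthranilate dioxygenase, fell with PFOA in CD (-0.81 ± 0.13) and with HFD under vehicle (-0.74 ± 0.13), and stood at -0.28 ± 0.13 with PFOA in HFD. Afmid, the formamidase that acts just after Tdo2, went from 11.9 to 16.3 CPM in HFD_vehicle to 18.9 to 31.8 in HFD_PFOA (0.77 ± 0.19, edgeR adjusted p = 0.00874). In CD it gave 0.17 ± 0.19, and its exons overlap those of Tk1 and Gm20708, which makes these low values uncertain. Kmo, kynurenine monooxygenase, was not called with PFOA (0.06 ± 0.12 in CD, 0.35 ± 0.12 in HFD, edgeR adjusted p = 0.0503). The value in HFD was just outside the threshold, and it was called higher in 9 of 23 other settings, among them DESeq2 (0.36, adjusted p = 0.0228).

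The 3 histidine genes act in sequence, and all 3 fell with PFOA in CD, none with PFOA in HFD and 2 with HFD under vehicle. Hal (ENSMUSG00000020017.14, chr10:93488768-93519304), the ammonia-lyase that opens the route, read 344, 492, 369 and 147 CPM in CD_vehicle, 169, 189, 210.1 and 162 in CD_PFOA, 129, 172, 207 and 169 in HFD_vehicle and 167, 155, 145 and 128 in HFD_PFOA. Mouse CD_vehicle 4 was below all 4 CD_PFOA mice, while the other 3 CD_vehicle mice were above all 12 mice of the other groups. The log2 fold change was -0.89 ± 0.23 with PFOA in CD, -0.18 ± 0.23 with PFOA in HFD and -0.999 ± 0.23 for HFD under vehicle (edgeR adjusted p = 0.00765, 0.674 and 0.00901).

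Amdhd1, which acts on imidazolone propionate, followed Hal in CD (-0.83 ± 0.14) and under HFD with vehicle (-0.53 ± 0.14), the second call ending without CD_vehicle 2 or 3 or HFD_vehicle 1 (-0.50 to -0.37, edgeR adjusted p 0.0553 to 0.0750). Uroc1, urocanate hydratase, had a smaller fall in CD (-0.26 ± 0.09, edgeR adjusted p = 0.0421), whose call ended without any 1 of 12 mice, all but CD_vehicle 1 and 4, CD_PFOA 3 and HFD_PFOA 1 (-0.26 to -0.19, edgeR adjusted p 0.0512 to 0.145). Sds, the serine dehydratase that makes pyruvate, went from 86.4 to 114 CPM in CD_vehicle to 41.7 to 87.7 in CD_PFOA (-0.61 ± 0.20) and from 50.02 to 93.1 in HFD_vehicle to 38.8 to 50.3 in HFD_PFOA (-0.76 ± 0.20). The groups overlapped on both diets. The call in CD ended without CD_vehicle 2 or 3 or CD_PFOA 1 or 4 (-0.62 to -0.45, edgeR adjusted p 0.0503 to 0.113), and in HFD without HFD_vehicle 4 (-0.64, edgeR adjusted p = 0.0515). Exons of Sds overlap other genes, and its relative Sdsl, at 4.07 to 10.2 CPM in CD_vehicle, was not called in any comparison.

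Prodh (ENSMUSG00000003526.12, chr16:18060357-18090203), the proline dehydrogenase of the mitochondrial inner membrane, read 113, 174, 177 and 119 CPM in CD_vehicle, 37.2, 58.3, 60.2 and 52.3 in CD_PFOA, 81.2, 87.9, 79.8 and 83.4 in HFD_vehicle and 41.0, 30.4, 34.8 and 31.4 in HFD_PFOA. The groups separated fully in CD, in HFD and between the diets under vehicle, with changes of -1.49 ± 0.16, -1.27 ± 0.16 and -0.81 ± 0.16 (edgeR adjusted p = 8.59e-07, 8.84e-06 and 0.00243). Aldh4a1, the next enzyme of proline breakdown, was not called in the same mice (-0.05 ± 0.11 and 0.17 ± 0.11 with PFOA, -0.35 ± 0.11 with HFD). Aass, which starts lysine breakdown, was not called either (-0.05 ± 0.14 and -0.04 ± 0.14).

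In the glycine cleavage system, the decarboxylase Gldc fell on both diets, from 214 to 278 CPM in CD_vehicle to 145 to 192 in CD_PFOA and from 195 to 218.8 in HFD_vehicle to 132 to 157 in HFD_PFOA (-0.64 ± 0.10 and -0.56 ± 0.10). Its partner subunits gave smaller values: the aminomethyltransferase Amt -0.30 ± 0.11 and -0.06 ± 0.11, and the lipoyl carrier Gcsh -0.13 ± 0.09 and -0.14 ± 0.09, none of them called. Amt was called lower with HFD under vehicle (-0.43 ± 0.11), but not without CD_vehicle 2 or 3 or HFD_vehicle 2 or 4 (-0.41 to -0.32, edgeR adjusted p 0.0594 to 0.0934). In the branched-chain ketoacid dehydrogenase, the E2 core Dbt fell with PFOA in CD (-0.49 ± 0.11). In HFD it gave -0.29, not called here but called lower in 5 of 23 other settings. Bckdha, an E1 subunit, rose with PFOA in HFD, from 41.2 to 48.6 to 54.0 to 63.2 CPM (0.38 ± 0.10, edgeR adjusted p = 0.0126). In CD it was not called (0.13), so on neither diet were both genes called in the reported fit. Bckdhb, the other E1 subunit, gave -0.28 ± 0.11 and -0.27 ± 0.11, and Bcat2, the mitochondrial transaminase of the same route, -0.47 ± 0.18 and -0.16 ± 0.18. Bckdha shares exon bases with B3gnt8, Bcat2 with 0610005C13Rik and Aldh4a1 with Gm21969.

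Of the 6 methionine and sulfur genes, 5 fell with PFOA in CD, 3 with PFOA in HFD and 5 with HFD under vehicle. Gnmt (ENSMUSG00000002769.9, chr17:46725664-46729168), which uses up S-adenosylmethionine by methylating glycine, read 1277, 1628, 1480.4 and 1112 CPM in CD_vehicle, 344, 502, 592 and 456 in CD_PFOA, 701, 576, 619.6 and 649.9 in HFD_vehicle and 410.3, 299.6, 309 and 285 in HFD_PFOA. All 12 other mice were below the CD_vehicle mice, and HFD_PFOA lay below HFD_vehicle without overlap. Its change was -1.54 ± 0.15 with PFOA in CD, -0.97 ± 0.15 in HFD and -1.11 ± 0.15 for HFD under vehicle (edgeR adjusted p = 4.03e-07, 1.30e-04 and 2.09e-04).

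Cbs (ENSMUSG00000024039.15, chr17:31608894-31637238), which condenses homocysteine with serine, had the lowest adjusted p of the 44 in both PFOA comparisons. It read 677, 554, 523 and 427 CPM in CD_vehicle, 188, 206, 198 and 196 in CD_PFOA, 356, 357, 366 and 387 in HFD_vehicle and 183, 184, 167 and 165 in HFD_PFOA. The groups did not overlap, in the order HFD_PFOA, CD_PFOA, HFD_vehicle and CD_vehicle from the bottom. The difference between the PFOA groups of the diets was small and not called (-0.18). The log2 fold change was -1.47 ± 0.11 in CD (edgeR adjusted p = 5.53e-09) and -1.07 ± 0.11 in HFD (5.19e-07). Cth, which releases cysteine after Cbs, gave -0.69 ± 0.20 in CD and -0.81 ± 0.20 with HFD under vehicle, and both calls ended without CD_vehicle 2 or 3 (-0.55 and -0.49 in CD, edgeR adjusted p 0.0592 to 0.0665; -0.67 to -0.61 with HFD, 0.0543 to 0.0552).

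Bhmt, which returns homocysteine to methionine with betaine, read 337, 372, 456 and 328 CPM in CD_vehicle, 142, 122, 223.1 and 139 in CD_PFOA, 299, 329, 251.5 and 288 in HFD_vehicle and 148, 99.8, 126 and 133 in HFD_PFOA. It fell with PFOA by nearly equal amounts on the diets (-1.26 ± 0.17 and -1.21 ± 0.17) and was not called for HFD under vehicle (-0.35 ± 0.16). Its exons overlap those of an antisense gene. Mat1a, the liver enzyme that makes S-adenosylmethionine, fell with PFOA in CD (-0.43 ± 0.11) and with HFD under vehicle (-0.70 ± 0.11), with -0.02 ± 0.11 for PFOA in HFD. Ahcy, which splits S-adenosylhomocysteine, was called only for HFD under vehicle (-0.57 ± 0.17), and not without CD_vehicle 2 or 3 or any 1 of the HFD_vehicle mice (-0.60 to -0.44, edgeR adjusted p 0.0573 to 0.129).

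Gamt (ENSMUSG00000020150.13, chr10:80258151-80261012), the methyltransferase that completes creatine and draws on S-adenosylmethionine, read 132, 168, 169 and 215 CPM in CD_vehicle, 48.0, 76.0, 94.5 and 80.7 in CD_PFOA, 128, 106, 109 and 127 in HFD_vehicle and 35.7, 42.4, 42.6 and 54.2 in HFD_PFOA. No PFOA mouse overlapped the vehicle mice of its diet, and its change in HFD was the largest fall of the 44 in that comparison (-1.42 ± 0.18, edgeR adjusted p = 8.39e-06; in CD -1.19 ± 0.17). Gatm, which makes the precursor of creatine mainly in kidney and is low in liver, was at 8.05, 10.7, 8.85 and 12.9 CPM in CD_vehicle, 6.35, 6.71, 4.59 and 7.73 in CD_PFOA, 10.7, 10.4, 11.3 and 11.1 in HFD_vehicle and 6.02, 12.1, 13.03 and 13.4 in HFD_PFOA. Its fall in CD (-0.67 ± 0.22, edgeR adjusted p = 0.032) lost its call without CD_vehicle 2 or 4 or CD_PFOA 1, 2 or 3 (-0.70 to -0.54, edgeR adjusted p 0.0520 to 0.0967). The plot of pathway sums gives the totals of 5 routes by mouse.

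**Figure D3:**
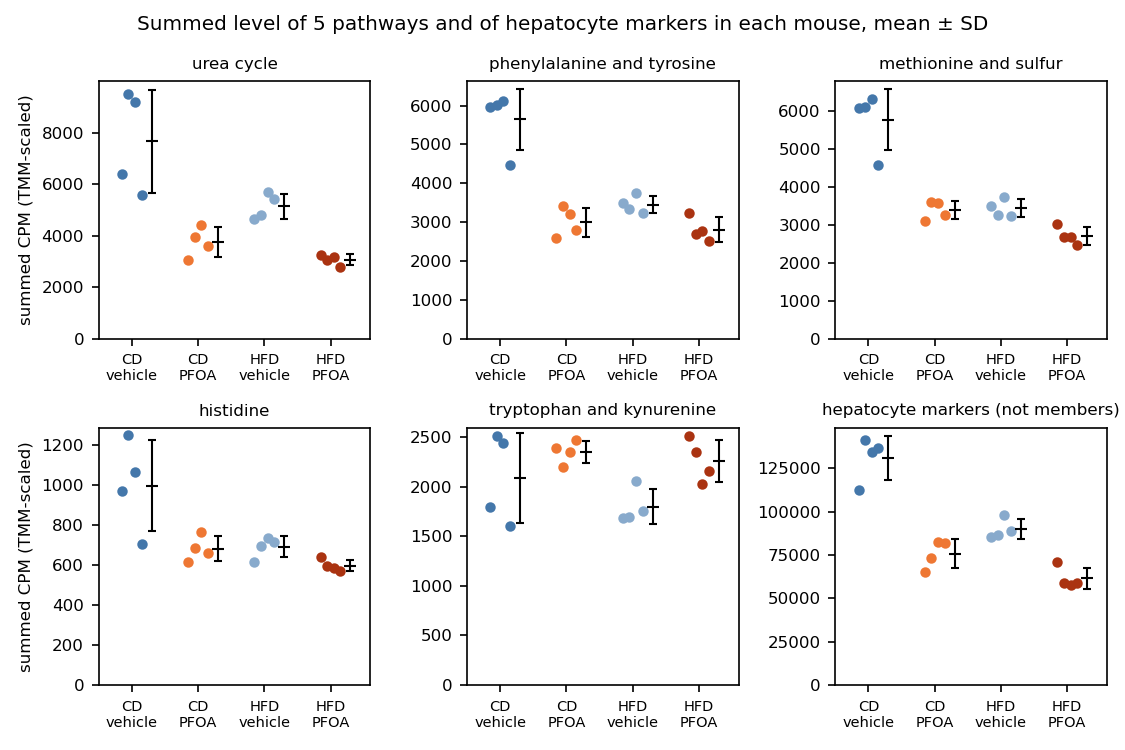
Summed level (CPM after TMM scaling, linear axis from 0) of 5 sets of members and of 7 hepatocyte markers in each of the 16 mice (points), with the mean ± SD of each group of 4 (bar). The urea cycle sum is 5564 to 9522 CPM in CD_vehicle and 2778 to 3258 in HFD_PFOA; the tryptophan and kynurenine sum, in which Tdo2 rose, overlaps between CD_vehicle (1608 to 2519) and CD_PFOA (2206 to 2471).

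The PFOA response was set side by side on the 2 diets, since these comparisons contrast different mice. Both come from 1 fit of all 16 libraries with a shared spread and scaling, so the 2 lists of calls are not independent. Of the 28 genes that fell in CD and the 19 that fell in HFD, 18 were in both lists, which is 64.3% of the first and 94.7% of the second. Over all genes tested, the overlap of lower calls was 859, or 45.4% of the 1893 in CD and 72.4% of the 1186 in HFD. The 10 genes called lower in CD only were Arg1, Fah, Haao, Hal, Uroc1, Amdhd1, Dbt, Mat1a, Cth and Gatm, and the 1 called lower in HFD only was Gpt2. A call on 1 diet alone does not show a difference between diets, so the difference itself was tested. The interaction, which subtracts the PFOA change in CD from that in HFD, had a median of 0.24 over the 44 and 0.0224 over all genes, and edgeR called 0 of the 44 and 0.207% of all genes (0.0667% higher and 0.140% lower). Scaled by library totals, these medians were 0.11 and -0.10, 0 of the 44 were called, and 86.4% of all calls were lower in place of 67.7%. Unadjusted p was under 0.05 for 13 of the 44, a count given without its share over all genes. DESeq2 called 1, Tat (0.72, adjusted p = 0.0404), beside 223 of all 14998 genes (91 higher and 132 lower).

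The lowest adjusted p for the interaction was that of Tat (0.73 ± 0.21, 95% interval 0.27 to 1.19, edgeR adjusted p = 0.165), followed by Haao (0.53 ± 0.18, 0.14 to 0.92) and Hpd (0.65 ± 0.24, 0.14 to 1.16). This count rests on mouse CD_vehicle 4. Without it, 5 of the 44 were called and all 5 were above 0: Hpd 0.85 (edgeR adjusted p = 0.00423), Hal 0.95 (0.0169), Amdhd1 0.68 (0.0199), Haao 0.64 (0.0385) and Cbs 0.499 (0.0407). Over all 14998 genes that fit called 359 interactions (121 higher and 238 lower), against 31 in the reported fit. Without CD_vehicle 1 and 4 together, which left only CD_vehicle 2 and 3 in that group, 11 were called, all above 0. Over all genes that fit called 662 (288 higher and 374 lower). Over the 44, CD_vehicle 1 and 4 had median log2 deviations of -0.098 and -0.39 from their group mates. Leaving them out thus tends to raise the CD_vehicle level and the interaction, whose median over the 44 was then 0.40. The setting was chosen with earlier results of these data known. Bhmt (0.05 ± 0.23, -0.45 to 0.55), Nags (-0.02 ± 0.17, -0.40 to 0.36) and Tdo2 (-0.10 ± 0.25, -0.64 to 0.43) had interaction values near 0 with wide intervals.

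**Figure D4:**
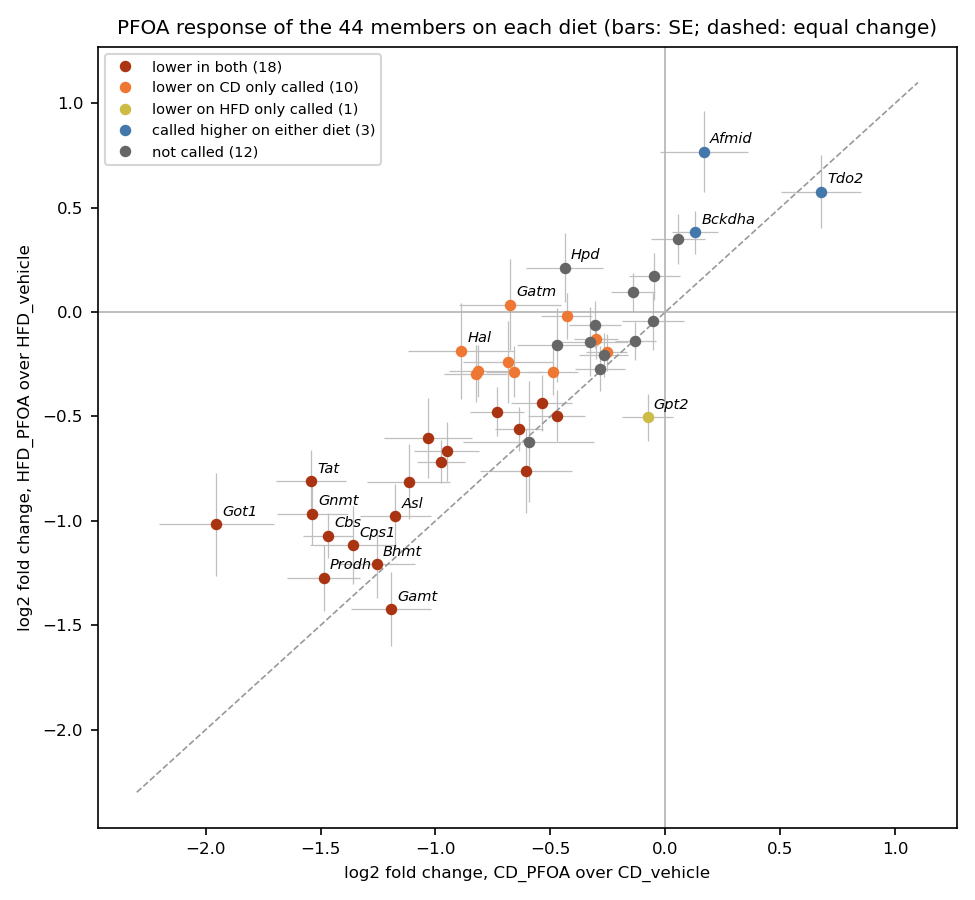
Log2 fold change with PFOA on the control diet (horizontal) and on the high-fat diet (vertical) for each of the 44 genes, with SE bars and a dashed line of equal change. The 18 genes called lower on both diets lie at the lower left, Got1 at -1.95 and -1.02, Gamt at -1.19 and -1.42, and Tdo2 at the upper right at 0.68 and 0.58.

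The diet alone was compared under vehicle and under PFOA. Under vehicle, Got1 (-1.58 ± 0.25), Gnmt (-1.11 ± 0.15), Hal (-0.999 ± 0.23), Tat (-0.99 ± 0.15), Prodh (-0.81 ± 0.16) and Cth (-0.81 ± 0.20) had the largest of the 21 falls. The count was 12 without CD_vehicle 2 and 12 without CD_vehicle 3, so it rests in part on these 2 mice, and it was 31 without CD_vehicle 4. Calls over all genes moved the same way, to 1106, 968 and 2288 in these 3 fits, from 1561 as reported. Cps1 ended its call without CD_vehicle 2 or 3 or HFD_vehicle 1, 2 or 4 (-0.64 to -0.47, edgeR adjusted p 0.0793 to 0.137), and Ass1 without any 1 of 12 mice, all but CD_vehicle 1 and 4 and CD_PFOA 1 and 3 (-0.66 to -0.43, edgeR adjusted p 0.0514 to 0.161). Summed levels of other cell types differed between the same groups. Cholangiocyte markers were 124 to 248.9 CPM in HFD_vehicle against 45.9 to 96.7 in CD_vehicle (1 of 5 called higher). Stellate markers were 538 to 608 against 236.4 to 439 (4 of 7 higher). Macrophage and Kupffer markers were 475 to 651 against 248 to 460 (4 of 10 higher). Single genes varied within these lists. Their log2 fold changes ran from -0.55 to 1.68 for cholangiocyte, 0.19 to 1.75 for stellate and -0.79 to 1.58 for macrophage markers. A sum is thus not the change of each gene in it. In HFD_PFOA the cholangiocyte sum was 55.3 to 78.8 CPM and the stellate sum 401 to 506, both below HFD_vehicle without overlap (1 of 5 and 1 of 7 called lower). The macrophage sum was 329.9 to 675. The part of these cell types in the results was not tested. Among mice given PFOA, 5 of the 44 (11.4%) did not overlap between CD_PFOA and HFD_PFOA, beside 7.68% of all genes. The lowest adjusted p was that of Gamt (-0.77 ± 0.17, edgeR adjusted p = 0.0973), followed by Prodh (-0.60 ± 0.16, 0.145) and Gatm (0.81 ± 0.22, 0.151).

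The rest of these pathways was read from 7 further lists with 100 tested genes. With PFOA in CD 46 of the 100 fell and 14 rose (median -0.31), with PFOA in HFD 23 fell and 14 rose (median -0.07), and with HFD under vehicle 27 fell and 3 rose (median -0.22). Beside these stand 12.6% lower and 11.8% higher over all genes in the first, 7.91% and 8.60% in the second and 5.21% and 5.19% in the third. Of 10 other urea cycle and nitrogen genes, 7 fell in CD and 5 in HFD with PFOA. Oat, ornithine aminotransferase, went from 659.8 to 930.1 CPM in CD_vehicle to 103 to 230.4 in CD_PFOA (-2.35 ± 0.31) and from 353 to 526 to 66.0 to 208 in HFD (-2.09 ± 0.31). Glul, the glutamine synthetase of hepatocytes around the central vein, went from 913 to 1541 to 253 to 527 CPM in CD (-1.55 ± 0.22) and from 989 to 1227 to 211 to 428 in HFD (-1.95 ± 0.23). Glud1, glutamate dehydrogenase, fell by less (-0.54 ± 0.09 and -0.72 ± 0.09).

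Sulfur genes next to Cbs and Cth moved in opposite directions. Cdo1, the dioxygenase that oxidises cysteine, fell with PFOA on both diets (-1.59 ± 0.14 and -1.50 ± 0.14). Csad, the decarboxylase after it on the way to taurine, rose from 32.3 to 81.9 CPM in CD_vehicle to 380.4 to 492 in CD_PFOA (3.17 ± 0.22) and from 98.8 to 139 in HFD_vehicle to 285 to 392 in HFD_PFOA (1.51 ± 0.21). It was the 1 gene of the 100 with a called interaction (-1.66 ± 0.29, edgeR adjusted p = 0.0192). Of the 24 glycine, serine, histidine and one-carbon genes, 15 fell and 3 rose with PFOA in CD, and 6 fell and 4 rose in HFD.

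Of 11 other aromatic and tryptophan genes, 6 fell and 1 rose with PFOA in CD, and 2 fell and 2 rose in HFD. Next to the tryptophan route, Aadat, an aminotransferase that acts on kynurenine, rose on both diets (0.85 ± 0.13 and 0.89 ± 0.13), and Kyat1, another such enzyme, rose in HFD (1.17 ± 0.16). Of 20 other branched-chain, lysine and propionate genes, 3 fell and 2 rose in CD, and 1 fell and 3 rose in HFD, shares near those over all genes. Ppm1k, the phosphatase that activates the branched-chain ketoacid dehydrogenase, was among those that rose (0.89 ± 0.19 and 0.99 ± 0.19). Of 7 amino acid synthesis genes, 2 rose, 1 fell and 4 were not called in CD, and 2 rose, 0 fell and 5 were not called in HFD. Those that rose on both diets were asparagine synthetase Asns (2.5002 ± 0.43 and 2.27 ± 0.44) and the serine synthesis enzyme Psat1 (2.93 ± 0.46 and 2.18 ± 0.45). Of 16 transporters, 9 fell and 2 rose in CD, with the glutamate transporter Slc1a2 at -1.88 ± 0.24 and the heavy chain Slc3a2 at 1.51 ± 0.12. In HFD 4 of the 16 fell, 1 rose and 11 were not called. The log2 fold changes of the 16 ran from -2.81 to 1.28 in HFD, beside -1.88 to 1.51 in CD.

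Among 15 regulators known to act on these genes, 6 fell and 4 rose with PFOA in CD, and 6 fell and 2 rose in HFD. Klf15, a factor that promotes amino acid breakdown in fasting, fell on both diets (-0.79 ± 0.12 and -0.57 ± 0.12). Creb3l3, a liver factor of the fasting response, rose on both (0.68 ± 0.10 and 0.75 ± 0.10). Ppara, the receptor that senses fatty acids, rose with PFOA in CD (0.86 ± 0.10) and with HFD under vehicle (0.75 ± 0.10).

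Per kilobase of exon, the 44 genes spanned a wide range in CD_vehicle. Tat stood at 1190 CPM per kilobase, at place 38 among 14983 genes, followed by Gnmt (place 41), Mat1a (51), Hpd (59), Cps1 (63) and Arg1 (67). Bcat2 was the lowest, at 2.53 CPM per kilobase and place 7076, above Gatm at 3.38 (place 6134). Of the 6 members at the top, Mat1a and Hpd were not called with PFOA in HFD, nor was Arg1, while Tat, Gnmt and Cps1 fell in both PFOA comparisons.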

How the data were processed

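Total RNA of flash-frozen livers of 16 mice was sequenced from non-stranded libraries, per the labels' protocols. Reads went through STAR 2.5.2b, Trimmomatic 0.33, bcl2fastq 2.20.0.422 and featureCounts (Subread 1.6.0) on GRCm38 (mm10), per the submitters' processing notes, which name no order; the sources used here give no annotation release. The authors deposited raw counts per gene as whole numbers.

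Genes were kept by filterByExpr by group (14998 kept), scaled by TMM and tested in 1 edgeR 4.0.16 quasi-likelihood fit of all 16 libraries, with Benjamini-Hochberg adjustment over all genes kept. Each SE is |log2 fold change| over the root of F. CPM are per 1e+06 counts. Mice of a group differed beyond counting noise in every pair (chi-square over its degrees of freedom 8.56 to 153.7). Gene positions, exon lengths and the printed identifier versions are from GENCODE M21, promoters from RefSeq. The counted rows carry other versions for Prodh (ENSMUSG00000003526.11), Gnmt (ENSMUSG00000002769.8) and Cbs (ENSMUSG00000024039.14), so their gene models may differ. SE, intervals and p-values include the spread between mice.

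Alternatives were DESeq2 1.42.0 and its size factors, library totals, no filter, robust estimation, 2-group fits and leaving out mice. All 44 members may be named, and from each further list up to 4 called genes with the smallest p. The members and lists were chosen with earlier results of these data known, which also gave the setting without CD_vehicle 1 and 4. One gene of the further lists is not reported here.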

Additional observations from a re-analysis of the deposited data

Results flagged for a closer look

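Each of the 44 genes was looked at in each group of 4 mice for a value far from the other 3, by Dixon's ratio of gap to range at its 95% critical value. Chance gives such a value in about 1 of 20 groups, and 4 of 176 were found, none of them in the vehicle groups. Arg1 was lowest in CD_PFOA 1, at 690.8 CPM against 935 to 974 in the other 3 mice (ratio 0.862). Aldh4a1 was highest in CD_PFOA 3, at 266 CPM against 196 to 207 (ratio 0.85). Kynu was lowest in HFD_PFOA 2, at 98.0 CPM against 117 to 120.02 (ratio 0.864). Bckdhb was highest in HFD_PFOA 1, at 54.8 CPM against 41.9 to 43.6 (ratio 0.862). Bckdhb was not called in the reported fit. By library totals it was called lower with PFOA in HFD (-0.32, edgeR adjusted p = 0.0391). Without HFD_PFOA 1 it was called lower with PFOA in CD (-0.29, edgeR adjusted p = 0.0350) and in HFD (-0.37, 0.0206), and without CD_PFOA 3 in CD alone (-0.36, 0.0224).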

How the results depend on the processing

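No paired analysis was possible because the labels give no replicate numbers or litters. No member's call changed direction in any of the 23 other settings; 23 of 29 calls with PFOA in CD, 18 of 22 with PFOA in HFD and 9 of 21 with HFD under vehicle held in every one. Leaving out 1 mouse at a time, the calls numbered 24 to 33 (1 higher, 23 to 32 lower) with PFOA in CD, 18 to 25 (2 to 4 higher, 16 to 21 lower) with PFOA in HFD, 12 to 31 (0 higher) with HFD under vehicle, 0 to 1 with HFD under PFOA (0 to 1 higher, 0 to 1 lower) and 0 to 5 (0 to 5 higher) for the interaction. Calls gained without CD_vehicle 4 were lower values of Gpt, Hpd, Amt, Bcat2 and Ahcy with PFOA in CD (-0.63 to -0.38, edgeR adjusted p 1.90e-04 to 0.0477), of Amdhd1 and Dbt and a higher value of Kmo with PFOA in HFD (-0.30 to 0.35, 0.0147 to 0.0495), and lower values of Nags, Gpt, Hgd, Afmid, Kmo, Uroc1, Aldh4a1, Gldc, Bckdha and Dbt with HFD under vehicle (-0.73 to -0.30, 0.00512 to 0.0336). HFD under vehicle gave 13 calls with library totals (1 higher, 12 lower), 10 (all lower) when only its 2 groups were fitted, and 32 (all lower) without CD_vehicle 1 and 4. HFD under PFOA gave 5 calls with no filter (1 higher, 4 lower), 4 with DESeq2 (1 higher, 3 lower) and 4 (all lower) without CD_vehicle 1 and 4. The interaction gave 2 (higher) with no filter, 1 (higher) with DESeq2 and 11 (higher) without CD_vehicle 1 and 4, and PFOA in CD then had 0 higher. Over all genes, HFD under PFOA called 9 as reported, 142 higher and 83 lower with no filter, 179 with DESeq2, 100 with its 2 groups alone and 210 without CD_vehicle 1 and 4. The interaction called 31 as reported, 290 with no filter, 223 with DESeq2, 359 without CD_vehicle 4 and 662 without CD_vehicle 1 and 4. HFD under vehicle called 1561 as reported, 896 with its 2 groups alone and 2340 with library totals. It called 2288 without CD_vehicle 4 and 2401 without CD_vehicle 1 and 4. The settings with no filter and with fewer libraries change the genes or mice in the fit; beyond that the cause was not tested. The fewest counts of a member in a library were 83 (Sdsl), 109 (Gatm) and 122 (Bcat2), a counting error of 11, 9.58 and 9.05%, below the common coefficient of variation between mice of 24.2% over all genes.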
